A study of Mus musculus with 4 samples.

Results

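The genes of the MCM helicase and of replication origin licensing were followed in fetal oocytes of mice whose mothers ate normal food (ND) or food rich in fat (HFD). They were Mcm2, Mcm3, Mcm4, Mcm5, Mcm6, Mcm7, Mcm10, Cdc45, Cdt1 and Cdc6, chosen by symbol, and all 10 were found among the 55401 gene identifiers counted in each library. ICR female mice received ND or HFD for 4 months and were mated with males on ND, and fetal ovaries were taken at E18.5, shortly before birth. Germ cells were sorted on the surface antigen SSEA-1, pooled from several fetuses and amplified with SMART-Seq2, a full-length method for small amounts of RNA. Each diet had 2 libraries. The labels call the cells primordial germ cells, and they name no batch and no litter, so the p-values given here measure only the spread between these samples.

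Before DNA is copied, the origin recognition complex marks an origin, and Cdc6 and Cdt1 load the MCM2-7 ring there in an inactive form, a step called licensing. Kinases later turn the ring into a working helicase by adding Cdc45 and the GINS complex, with Mcm10 acting at the moment of activation. Germ cells of the fetal ovary copy their DNA a last time before meiotic prophase I, and E18.5 oocytes have left that S phase behind. Fully grown oocytes store licensing factors for the divisions of the embryo.

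Total counts were between 5723605 and 8223255 per library, and 3 counts corresponded to 0.365 to 0.524 CPM (the count over the library total, times 1000000). To judge what stands above background, reads per kilobase of exon were taken for 1093 olfactory receptor genes, best known from the nose, and their 99th percentile in each library, 7.36 to 12.5, was the limit. Germ cell markers were above it for 5 to 7 of 9 genes per library. However, Ddx4 was at 0.774 to 12.4 CPM and Fut4 was at background in all 4 libraries. Markers of other cells were not even between the libraries. Summed CPM ran from 67.4 to 7674 for 8 stromal genes and from 11.8 to 1157 for 8 pregranulosa genes. It ran from 20.4 to 698 for 5 endothelial genes and from 9.85 to 40.2 for 6 macrophage genes. Single genes made the highest pregranulosa and endothelial sums: Amhr2 was at 1113 CPM in HFD replicate 2 and Kdr at 681 CPM in HFD replicate 1. Fst was at 383 CPM in ND replicate 2, whereas Foxl2 was at 2.17 to 5.94 CPM and Cdh5 at 1.28 to 9.96 CPM. These 2 sums therefore do not measure amounts of such cells. The stromal genes did not go together either. In HFD replicate 2, Col1a1, Col3a1 and Postn were at 2741, 2968 and 1272 CPM, but Dcn and Lum at 2.97 and 1.22 CPM. In ND replicate 1, Dcn and Lum were at 323 and 598 CPM, but Col3a1 and Postn at 32.6 and 2.92 CPM. The stromal sum is thus no measure of such cells either. For 6 blood genes the sum was 1973 CPM in ND replicate 1 and at most 10.8 CPM in the other libraries, where 2 of the 6 genes were at 0. Their part in the results on licensing genes was not tested. In pooled cells of this kind, fewer cells that carry an RNA and less of it per cell cannot be told apart.

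RNA of the licensing genes was unevenly spread over the libraries. Their median was 5.90 and 9.21 CPM in ND and 2.63 and 5.50 CPM in HFD, against 3.16, 2.94, 2.01 and 4.54 CPM for all genes tested, in the same order. Of the 40 values (10 genes in 4 libraries), 19 were above background. ND replicate 1 had 6 of the genes above background, ND replicate 2 had 8, HFD replicate 1 had 3 and HFD replicate 2 had 2. Of all genes tested, 30.6%, 27.4%, 16.7% and 18.8% were above it. No gene was above background in all 4 libraries, 4 were so in 3 libraries, and Mcm10 and Cdc6 in none. At the 95th percentile, and by counts not divided by length, both were above background in ND replicate 2, where all 10 genes then were. A limit of 100 CPM, chosen after the values were seen, was exceeded by 5 values (12.5%, against 3.75% to 7.38% of all genes tested per library), and these 5 held 90.9% of all counts on the 10 genes. They were Mcm6 in ND replicate 1, Cdc45 in ND replicate 2, and Mcm3, Mcm6 and Mcm7 in HFD replicate 1. The other 35 values lay between 0.310 and 43.2 CPM, with a median of 5.63 CPM. In the plot of CPM by gene and library the 5 high values stand far above the rest.

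**Figure D1:**
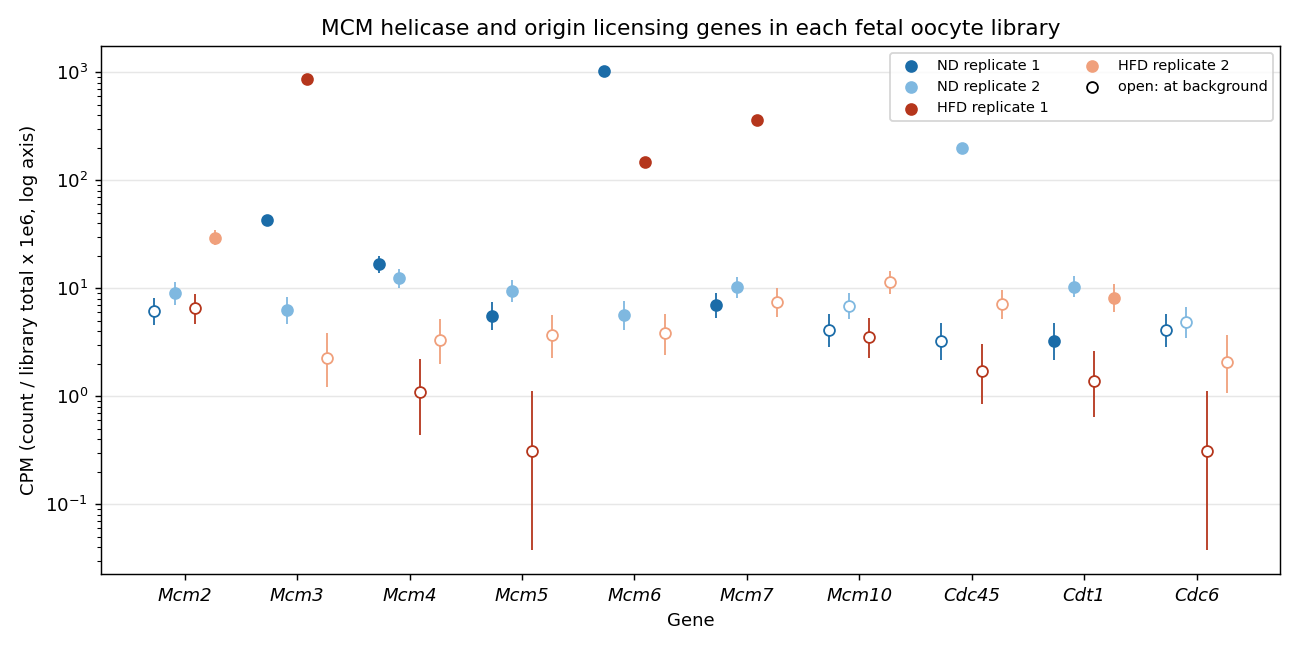
CPM (log axis) of the 10 licensing genes in the 2 ND (blue) and 2 HFD (red) libraries, with exact 95% binomial intervals that cover counting error only. Filled points are above the background limit of their library and open points are not. Most points lie near 1 to 10 CPM, and 5 points lie above 100 CPM.

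The promoters of these genes hold letters that can be read beside their values. E2F proteins are the transcription factors that turn on S-phase genes, and the search used the letters TTTCCCGC, TTTCGCGC, TTTGCCGC and TTTGGCGC on both strands, from 250 bases before to 50 bases after the start of transcription (RefSeq promoters, GRCm38.p6). A promoter entry was found for 9 of the 10 genes, all but Mcm4. At least 1 match lay in 6 of the 9, against 2.60% of the 27025 genes in the table. The letters CCAAT, which NF-Y binds, were found on either strand in 7 of the 9 genes, against 41.1% of all genes. Each line below gives a stretch of at most 30 bases, in the direction of the gene, with the E2F letters in capitals. The capitals are alike because the search asked for these letters.
Cdc6, chr11:98908002-98908031, plus strand, 138 bases before the start: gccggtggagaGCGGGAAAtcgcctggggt
Cdt1, chr8:122568036-122568064, plus strand, 32 bases after the start: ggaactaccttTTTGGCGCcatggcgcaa
Mcm3, chr1:20820275-20820304, minus strand, 19 bases after the start: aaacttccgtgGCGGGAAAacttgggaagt
Mcm5, chr8:75109347-75109376, plus strand, 153 bases before the start: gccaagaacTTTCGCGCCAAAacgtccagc
Mcm6, chr1:128359795-128359824, minus strand, 110 bases before the start: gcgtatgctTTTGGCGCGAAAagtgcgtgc
Mcm7, chr5:138171849-138171878, minus strand, 16 bases after the start: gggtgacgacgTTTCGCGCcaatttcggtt
In Mcm5 and in the Mcm6 stretch shown, 2 matches on opposite strands overlap, and the 12 capital letters of one are the reverse complement of the other. Mcm3, Mcm6 and Mcm7 have a further match each within the searched window. Mcm7 has another promoter entry, with its start at chr5:138171266, that holds 0 matches. A gene was counted by its entry with the most matches. A match describes the letters and does not show that a factor binds there. Whether the letters bear on the RNA levels was not tested. Per kilobase of exon (RPKM, the CPM over the exon length), Mcm6 and Mcm5, which share these letters, were at 221 against 1.40 in ND replicate 1. They were at 32.0 against 0.0776 in HFD replicate 1, where Mcm5 had 2 counts. Mcm6 was the lower of the pair in the other libraries. It was at 1.21 against 2.37 in ND replicate 2, and at 0.824 against 0.919 (both at background) in HFD replicate 2.

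Among the subunits of the ring, Mcm4 had the most even values within each diet. Mcm4 (ENSMUSG00000022673, chr16:15623897-15637400, minus strand, GRCm38) had 137 and 97 counts in ND, against 7 and 19 in HFD (replicate 1 first, as in all pairs of values here). In CPM these were 16.7 and 12.4 in ND and 1.08 and 3.32 in HFD. Both HFD libraries were below both ND libraries, and the gene was above background only in ND. The fitted log2 fold change of HFD against ND was -2.95 ± 0.58 (SE), and the adjusted p was 0.406 (edgeR's quasi-likelihood test, Benjamini-Hochberg over all genes). Leaving out any 1 library gave values from -3.22 to -2.84. Mcm5 (ENSMUSG00000005410, chr8:75109569-75128439, plus strand) gave 46 and 74 counts in ND and 2 and 21 in HFD, or 5.59 and 9.47 against 0.310 and 3.67 CPM. Its diets did not overlap either, and its ND libraries alone were above background. The fitted difference was -2.39 ± 1.02 (SE), adjusted p = 0.406 by the same edgeR test, and reached -4.06 without HFD replicate 2 and -1.77 without HFD replicate 1.

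For Mcm3, Mcm6 and Mcm7 a single library decided the direction of the diet difference. Mcm3 (ENSMUSG00000041859, chr1:20802968-20820312, minus strand) had 355 and 49 counts in ND and 5611 and 13 in HFD. The CPM were 43.2 and 6.27 in ND, 869 in HFD replicate 1 and 2.27 in HFD replicate 2, so the 2 HFD libraries lay on either side of both ND libraries. HFD replicate 1 held 94.4% of the gene's summed CPM, 20.1 times the next library. The fitted difference was 4.67 ± 3.05 (SE), adjusted p = 0.552 with edgeR, and it was -4.11 without HFD replicate 1.

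Mcm7 (ENSMUSG00000029730, chr5:138164583-138172422, minus strand) had 57 and 80 counts in ND, 2344 in HFD replicate 1 and 43 in HFD replicate 2. These were 6.93 and 10.2 CPM against 363 and 7.51 CPM. Apart from HFD replicate 1, which was 35.5 times the next library, the libraries lay close together. The fitted difference of 4.89 ± 2.38 (SE), adjusted p = 0.415 with edgeR, turned to -0.93 without HFD replicate 1. Exons of Mcm7 share 64 bases with Cops6 and 321 bases with Ap4m1, both on the opposite strand, and the strand setting of the counting is not given in the sources used here, so reads from these stretches cannot be told apart. Cops6, a subunit of the COP9 signalosome, had 1652 and 154 counts in ND and 2391 and 46 in HFD, and Ap4m1 had 14 to 38 counts.

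Mcm6 (ENSMUSG00000026355, chr1:128331590-128359664, minus strand) had 8467 and 44 counts in ND and 963 and 22 in HFD. The CPM were 1029.6 in ND replicate 1, 5.63 in ND replicate 2, 149 in HFD replicate 1 and 3.84 in HFD replicate 2. Each diet had 1 library high and 1 low, and the high ND value was 6.90 times the high HFD value. The fit gave -2.23 ± 2.87 (SE), adjusted p = 0.820 with edgeR. It was 4.15 without ND replicate 1 and -7.73 without HFD replicate 1.

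Mcm2 (ENSMUSG00000002870, chr6:88883474-88898780, minus strand), the subunit whose tail also carries histones at the fork, had 51 and 70 counts in ND and 42 and 169 in HFD. In CPM these were 6.20 and 8.96 against 6.50 and 29.5. HFD replicate 2 was the highest library and the other 3 lay within a narrow range, so the diets overlapped. The fit gave 0.90 ± 0.71 (SE), adjusted p = 0.639 with edgeR, and fell to 0.27 without HFD replicate 2.

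The MCM2-7 ring holds each subunit once, but the RNAs of its subunits were not equal in RPKM, and far from it in replicate 1 of each diet. In ND replicate 1, Mcm6 was at 221 RPKM and made up 91.7% of the sum of the 6 subunits, 247 times the lowest, Mcm2 (95% counting interval 188 to 326). In HFD replicate 1, Mcm3 was at 232 RPKM with 66.8% of the sum, Mcm7 had 23.6% and Mcm6 had 9.21%. The lowest there was Mcm5, with 2 counts, under the floor of 3 counts, and the ratio of Mcm3 to Mcm5 was 2986 with a wide counting interval (747 to 11941). The remaining 2 libraries were flatter: the highest subunit of ND replicate 2 was Mcm4, 2.87 times Mcm6 (2.01 to 4.09), and that of HFD replicate 2 was Mcm2, 7.01 times Mcm3 (3.99 to 12.3). A different subunit led in each of the 4 libraries, and the lowest was at background in all of them but ND replicate 2. The 6 genes together had 9113 counts in ND replicate 1 and 8969 in HFD replicate 1, against 414 in ND replicate 2 and 287 in HFD replicate 2, so the sum of the subunits differed more between libraries of a diet than between the diets.

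**Figure D2:**
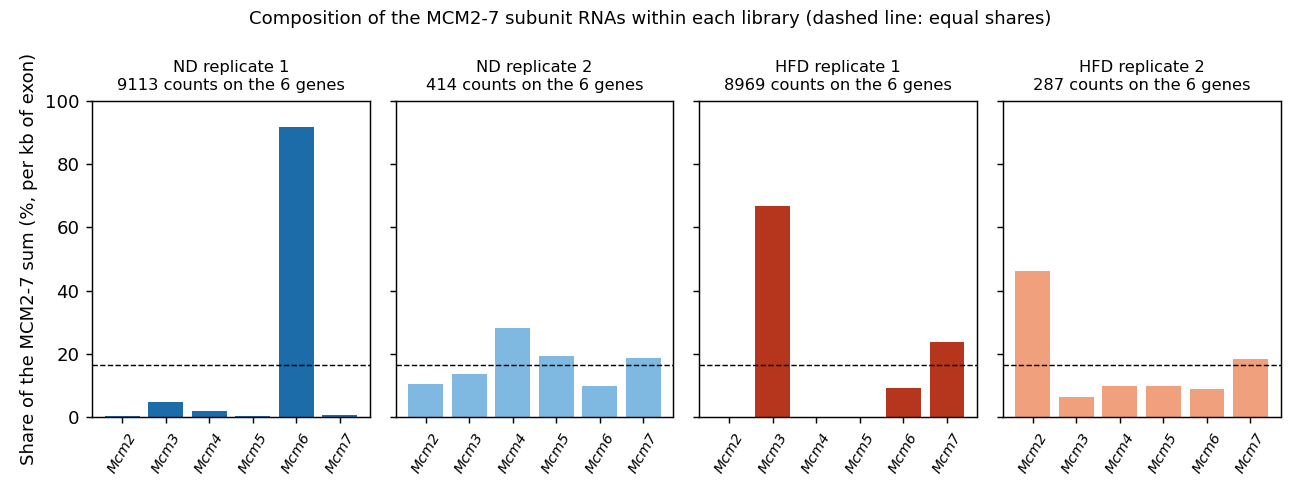
Share of each MCM2-7 subunit (percent of the summed reads per kilobase of exon of the 6 genes) in each library, with the counts behind it; the dashed line marks equal shares. Mcm6 fills 91.7% of ND replicate 1 and Mcm3 66.8% of HFD replicate 1, and ND replicate 2 is the most even.

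The loading factors were at 10.4 CPM or less in every library, and Cdt1 was above background in all but HFD replicate 1. Cdc6 (ENSMUSG00000017499, chr11:98907801-98923940, plus strand), the ATPase that brings the ring to the origin, had 34 and 38 counts in ND and 2 and 12 in HFD. In CPM these were 4.13 and 4.86 against 0.310 and 2.10. The ND libraries were close to each other and both HFD libraries were below them, with all 4 values at background by the 99th percentile. The fitted difference was -2.28 ± 0.73 (SE), adjusted p = 0.406 with edgeR, and ran from -3.31 to -1.82 without 1 library. Cdt1 (ENSMUSG00000006585, chr8:122568015-122573554, plus strand), its partner in loading, had 27 and 81 counts in ND and 9 and 47 in HFD, or 3.28 and 10.4 against 1.39 and 8.21 CPM. Replicate 2 was the higher library in both diets, and the diets overlapped. The fitted difference of -0.92 ± 0.85 (SE), adjusted p = 0.710 with edgeR, was 0.12 without ND replicate 2.

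Of the activation factors, Cdc45 was high in 1 library and Mcm10 in none. Cdc45 (ENSMUSG00000000028, chr16:18780447-18811987, minus strand), which travels with the active helicase, had 27 and 1548 counts in ND and 11 and 41 in HFD. The CPM were 3.28 in ND replicate 1, 198 in ND replicate 2, 1.70 in HFD replicate 1 and 7.16 in HFD replicate 2. ND replicate 2 held 94.2% of the sum and was 27.7 times the next library, which was an HFD library. The fitted difference was -4.87 ± 2.10 (SE), adjusted p = 0.406 with edgeR, and 0.085 without ND replicate 2. Exons of Cdc45 share 209 bases with Ufd1 on the opposite strand, which had 11 to 36 counts. Mcm10 (ENSMUSG00000026669, chr2:4989714-5012791, minus strand) had 34 and 54 counts in ND and 23 and 65 in HFD, or 4.13 and 6.91 against 3.56 and 11.4 CPM. The HFD libraries lay on either side of the ND libraries. The fit gave 0.16 ± 0.55 (SE), adjusted p = 0.953 with edgeR, and its sign turned to -0.29 without ND replicate 1 and to -0.15 without HFD replicate 2.

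The diets were compared to ask whether the mother's HFD went with other levels of these RNAs, and no licensing gene passed the test. By the edgeR test, 0 of the 10 had an adjusted p under 0.05 with a fold change over 1.5, where 0% of the 19335 genes tested did, although 2171 of all genes had an unadjusted p under 0.05. The smallest adjusted p was 0.406, for the licensing genes and for all genes. Unadjusted p-values under 0.05 were found for Mcm4 (unadjusted p = 0.00217, edgeR) and Cdc6 (unadjusted p = 0.0187, edgeR), both lower in HFD, and 6.41% of all genes were lower at that limit. limma-voom gave 0 of the 10 an unadjusted p under 0.05. An exact permutation test of 2 libraries against 2 cannot give a p below 0.333.

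For 6 of the 10 genes the fitted difference was below 0, against 48.5% of all genes. Its median was -1.57 and its mean -0.50 for the licensing genes, and the median of all genes was 0.03. In limma-voom the median was -0.81. Among the 6 licensing genes with at least 10 counts in every library it was 0.49, with 2 below 0. That filter dropped Mcm4, Mcm5, Cdt1 and Cdc6, which had 7, 2, 9 and 2 counts in HFD replicate 1. All 4 were below 0 in the main fit, so this median cannot speak to the direction over the 10 genes. Both HFD libraries were below both ND libraries for 3 genes, Mcm4, Mcm5 and Cdc6, against 13.4% of all genes, and above them for 0, against 13.9%. HFD replicate 1 was the lowest library for 6 of the 10 genes and for 47.3% of all genes. The highest library was at least 10 times the second for 3 genes, Mcm3, Mcm7 and Cdc45, against 11.5% of all genes. The median over the licensing genes was -0.97 without ND replicate 1 and 0.10 without ND replicate 2, where the count of genes below 0 was 4. Mean and SD over 2 libraries show the same spread: Mcm4 averaged 14.5 ± 3.004 CPM on ND and 2.20 ± 1.58 CPM on HFD (SD, n = 2), whereas Mcm3 was at 24.7 ± 26.1 and 436 ± 613 CPM and Mcm6 at 518 ± 724 and 76.5 ± 103 CPM. The plot of fitted differences shows which genes kept their sign when a library was left out.

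**Figure D3:**
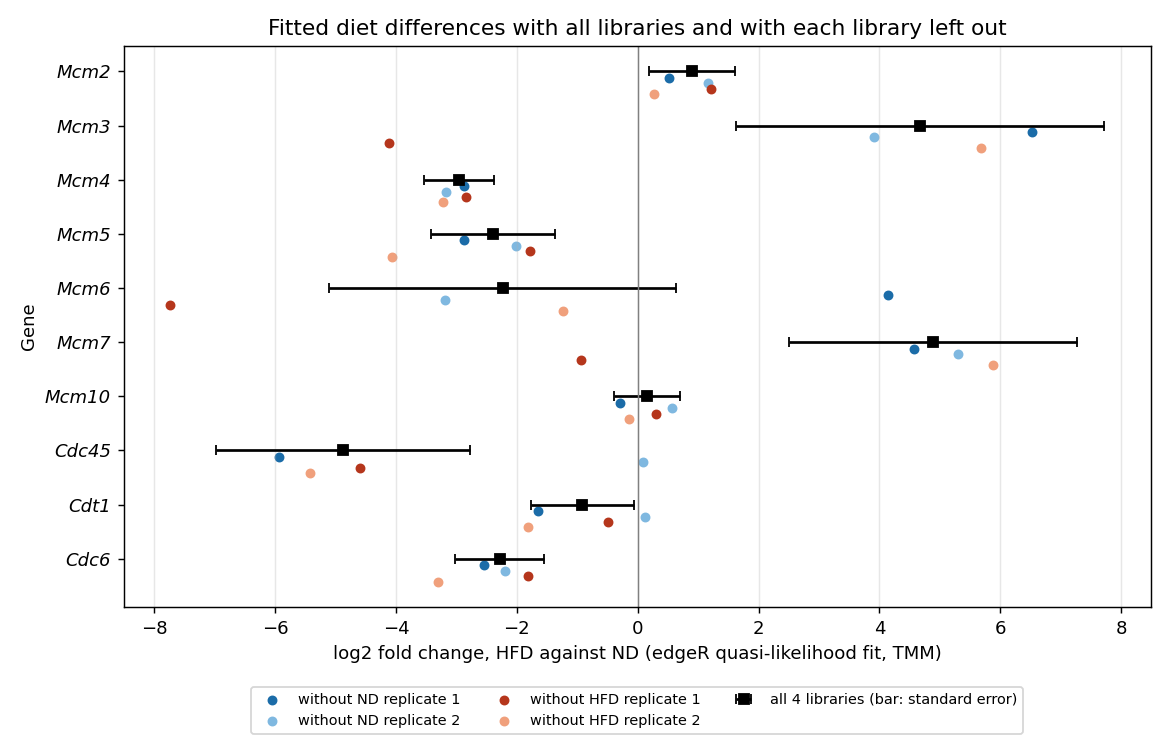
Fitted log2 fold change of HFD against ND for the 10 licensing genes from edgeR (black squares, bars: standard error), with the value refitted without each library in turn (coloured points). Mcm2, Mcm4, Mcm5 and Cdc6 stay on their side of 0 without any 1 library, and Mcm3, Mcm6, Mcm7, Mcm10, Cdc45 and Cdt1 cross it.

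DESeq2, which the study's methods name, gave calls on the same counts. Run on all genes it gave an adjusted p to 6 of the 10 and called 4 at an adjusted p under 0.05 and a fold change over 1.5. Mcm4 (log2 fold change -3.01, adjusted p = 0.0393, DESeq2) and Cdc45 (-4.98, adjusted p = 0.00548, DESeq2) were called lower in HFD, where 21% of the 5601 genes with an adjusted p were. Mcm3 (4.64, adjusted p = 0.0258, DESeq2) and Mcm7 (4.82, adjusted p = 0.00803, DESeq2) were called higher, where 24.3% were. Of these 4 genes, Mcm4 alone had diets that did not overlap, and the other 3 were those with 1 library at least 10 times the second. On the genes kept by edgeR's filter, DESeq2 called Mcm4, Mcm5 and Cdc45, all lower, where 11.1% of the 9589 genes with an adjusted p were. Over the tools, scalings and filters tried, the adjusted p ran from 0.00186 to 0.817 for Mcm4, from 0.00548 to 0.817 for Cdc45, from 0.0258 to 0.928 for Mcm3, from 0.00803 to 0.871 for Mcm7 and from 0.0195 to 0.817 for Mcm5, with DESeq2 at the low end of each.

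Ordered by mean RPKM, the genes ran differently in the 2 diets. In ND the order was led by Mcm6 (111 ± 155, SD, n = 2) and Cdc45 (28.7 ± 39.3), followed by Mcm3 (6.59 ± 6.95), Mcm4 (4.05 ± 0.837), Cdt1 (2.17 ± 1.59), Mcm7 (1.94 ± 0.528), Mcm5 (1.89 ± 0.686), Mcm2 (1.09 ± 0.280), Cdc6 (0.860 ± 0.0984) and Mcm10 (0.718 ± 0.255). Only the steps from Mcm4 to Cdt1 and from Mcm5 to Mcm2 were larger than the larger SD of the neighbours. In HFD the order was Mcm3 (116 ± 163), Mcm7 (41.9 ± 56.8), Mcm6 (16.4 ± 22.0), Mcm2 (2.59 ± 2.34), Cdt1 (1.53 ± 1.54), Cdc45 (1.26 ± 1.10), Mcm10 (0.970 ± 0.717), Mcm4 (0.614 ± 0.440), Mcm5 (0.498 ± 0.595) and Cdc6 (0.230 ± 0.242). There no gene differed from its neighbour by more than the larger SD.

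Partners of the licensing genes were read from 6 lists of 51 genes, of which 49 were tested. By edgeR, 0 passed the adjusted test, 36 had a fitted difference below 0 and 13 above, and the median was -0.58. Of all genes tested, 48.5% were below 0 and the median was 0.03, and this also stands beside each list below. Of the 51, 5 were above background in all 4 libraries, 7 in 3, 10 in 2, 14 in 1 and 15 in none. Per library, 16.7% to 30.6% of all genes tested were above it. The highest library was at least 10 times the second for 12 of them, against 11.5% of all genes tested. Of these 12, 7 had ND replicate 2 as the highest, and the share of all genes by library is not given here. The heat map of the pathway shows these single bright cells.

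**Figure D4:**
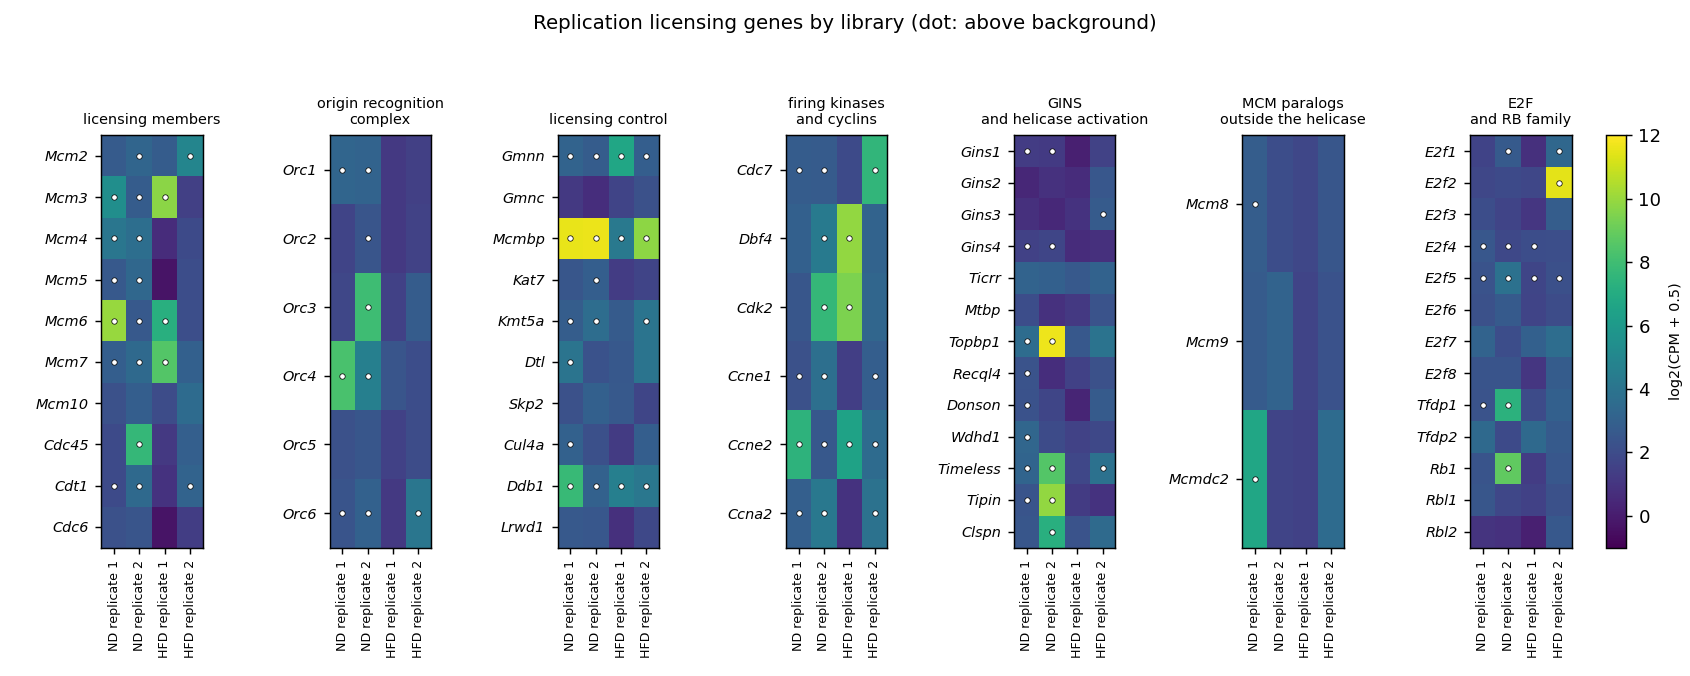
log2(CPM + 0.5) of the licensing genes and of 6 lists of their partners in each library, with a white dot where a value is above background. Bright cells such as Topbp1 in ND replicate 2 and E2f2 in HFD replicate 2 stand in 1 library, whereas Mcmbp is bright in 3.

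All genes of the origin recognition complex but Orc6 had fitted differences below 0, 5 of 6, with a median of -1.54. Orc1, the ATPase subunit, was at 8.88 and 8.45 CPM in ND and 1.70 and 2.27 CPM in HFD (log2 fold change -2.15, unadjusted p = 0.00442, edgeR), with diets that did not overlap. Orc4 was at 312 and 24.3 CPM in ND and 4.96 and 3.67 CPM in HFD (-5.11, unadjusted p = 0.0364, edgeR). Orc3 was at 248 CPM in ND replicate 2 and at 2.32 to 6.29 CPM elsewhere, the pattern of a single high library that Cdc45 had.

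Among 10 genes that control licensing, 8 had fitted differences below 0 and the median was -0.46. Mcmbp, whose product binds MCM proteins away from chromatin, was the highest of them, at 3075 and 3158 CPM in ND and 18.6 and 901 CPM in HFD (log2 fold change -3.34, unadjusted p = 0.224, edgeR). Per kilobase, its 602 and 618 RPKM in ND were higher than any value of a licensing gene. Geminin (Gmnn), the inhibitor of Cdt1, was at 105 CPM in HFD replicate 1, the library with the high Mcm3 and Mcm7, and at 6.40 to 8.39 CPM in the others. In HFD replicate 1, 7.38% of all genes tested were above 100 CPM, and a link of Gmnn to Mcm3 or Mcm7 was not tested. Ddb1, part of the ligase that degrades Cdt1, was at 214 CPM in ND replicate 1 and 7.68 to 24.3 CPM elsewhere. Unadjusted p-values under 0.05 were found for Lrwd1, a partner of the origin recognition complex (-1.55, unadjusted p = 0.00427, edgeR), Kat7, an acetyltransferase at origins (-1.38, unadjusted p = 0.0274, edgeR), and Gmnc, a relative of geminin (1.17, unadjusted p = 0.0284, edgeR).

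The kinases and cyclins that fire origins split evenly, 3 of 6 on each side of 0 with a median of 0.92 and 0 at an unadjusted p under 0.05 (edgeR). Dbf4, the activator of the kinase Cdc7 that phosphorylates the MCM ring, was at 935 CPM in HFD replicate 1 and 7.42 to 19.96 CPM elsewhere. Cdk2 was at 683 CPM in HFD replicate 1 and 204 CPM in ND replicate 2, and at 4.99 and 9.43 CPM in the other libraries. Ccne2, a cyclin of Cdk2, was high in replicate 1 of both diets, at 169 CPM in ND and 90.8 CPM in HFD, as Mcm6 was. Whether Ccne2 and Mcm6 go together was not tested.

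Of 13 genes of GINS and helicase activation 11 were tested, and 9 had fitted differences below 0, with a median of -1.14. Topbp1, which helps to load Cdc45, was at 3212 CPM in ND replicate 2 and 5.58 to 14.9 CPM elsewhere. The fork protection genes Tipin (963 CPM) and Timeless (373 CPM) were also highest in ND replicate 2, the library with the high Cdc45, and were at 13.8 CPM or less elsewhere. So was the pregranulosa marker Fst (383 CPM), at 4.26 CPM or less elsewhere. Of all genes tested, 3.75% were above 100 CPM in ND replicate 2. Whether these RNAs go with Cdc45 was not tested. For Tipin the diets did not overlap (-8.15, unadjusted p = 0.0380, edgeR). The GINS subunits themselves were at 0.620 to 6.12 CPM in every library.

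The MCM relatives best known from recombination were all below 0 in the fit, 3 of 3. Mcm9 was at 6.20 and 8.19 CPM in ND and 2.63 and 4.37 CPM in HFD (-1.14, unadjusted p = 0.0474, edgeR), and Mcmdc2, a meiotic gene, was at 103 CPM in ND replicate 1 and 2.32 to 11.4 CPM elsewhere. Mcm8 was at 2.94 to 6.69 CPM. In the E2F and RB family 8 of 13 were below 0, with a median of -0.09. E2f2 was at 2876 CPM in HFD replicate 2 and at 2.92 to 3.33 CPM elsewhere (8.23, unadjusted p = 0.0493, edgeR), and Rb1 was at 455 CPM in ND replicate 2 and 2.01 to 5.24 CPM elsewhere (-6.24, unadjusted p = 0.0464, edgeR). In HFD replicate 2, Mcm2 (29.5 CPM) and Mcm10 (11.4 CPM, at background) had their highest values of all libraries. These were 2 of the 10 licensing genes, whereas 50.6% of all genes tested were highest in that library. No licensing gene was above 29.5 CPM there. A link to E2f2 was not tested.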

How the data were processed

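RNA-seq of 2 ND and 2 HFD samples was used. The authors used Trim Galore for trimming, HISAT2 for alignment to mm10 and featureCounts for counting, and deposited raw counts per Ensembl gene and library, with no normalization. Annotation release, strand setting and treatment of reads with several alignments are not given in the sources used here. GENCODE M21 supplied names, exon lengths and positions (55141 identifiers matched, 260 did not). Counting intervals (95%) are exact binomial for CPM and normal on the log scale for ratios; they and the floor of 3 counts cover counting error only, since reads carry no molecular identifiers.

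Diets were compared with edgeR 4.0.16 (R 4.3.3; quasi-likelihood fit, legacy FALSE; TMM factors 1.02 and 0.940 in ND, 0.692 and 1.51 in HFD; filterByExpr), with Benjamini-Hochberg adjustment over 19335 genes, at adjusted p under 0.05 and fold change over 1.5. The study's own tool, DESeq2 (1.42.0), and limma-voom (3.58.1) were alternatives. Standard errors are the log2 fold change over the root of F. The fits were also run on simulated data with a smaller and a larger spread. At the smaller spread each tool found part of the changed genes. At the larger spread edgeR and limma-voom found none, and DESeq2 made more false calls than right ones. An absence of calls therefore does not show equal levels. Beside the 10 members, partner genes are named where the unadjusted p was under 0.05 or where they were among the 3 most abundant of their list. A value was above background over both the olfactory receptor limit and 3 counts. Members and lists were chosen with earlier results of these data known.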

Additional observations from a re-analysis of the deposited data

How the results depend on the processing

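The calls depended on the tool. Over all genes, edgeR made 0 calls, its legacy fit 34 (12 higher, 22 lower), DESeq2 on all genes 2539 (1360 higher, 1179 lower) and DESeq2 on the filterByExpr genes 2102 (1039 higher, 1063 lower). Of the licensing genes, DESeq2 called 4 on all genes and 3 on the filtered genes, and the other fits called 0. With at least 10 counts required in every library, 6 licensing genes were tested, 2 of them below 0, with a median log2 fold change of 0.49. The other 4, Mcm4, Mcm5, Cdt1 and Cdc6, were not tested there. All 4 were below 0 in the main fit, so the filter removed only genes below 0. Without 1 library each, the genes below 0 numbered 4 to 8, the median ran from -1.80 to 0.10, and the calls stayed at 0 for licensing genes and for all genes (edgeR). Ranges of the log2 fold change without 1 library were 0.27 to 1.22 for Mcm2, -4.11 to 6.52 for Mcm3, -3.22 to -2.84 for Mcm4, -4.06 to -1.77 for Mcm5, -7.73 to 4.15 for Mcm6, -0.93 to 5.89 for Mcm7, -0.29 to 0.57 for Mcm10, -5.94 to 0.085 for Cdc45, -1.81 to 0.12 for Cdt1 and -3.31 to -1.82 for Cdc6. Where a library was left out, the lone library of its diet was assumed to vary like the other diet. Mcm10 was at -0.025 in limma-voom; the cause was not tested. At the 95th percentile 8 and 10 genes were above background in ND and 4 and 4 in HFD; by counts not divided by length, 8 and 10 in ND and 4 and 2 in HFD; and by vomeronasal receptor genes, 5 and 8 in ND and 4 and 3 in HFD. By counts not divided by length, the highest subunit was 184 times the lowest in ND replicate 1 and 13 times in HFD replicate 2. With library size alone as the scaling, the median of all genes moved to 0.21 and that of the licensing genes to -1.19, with 6 below 0.

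The deviations of same-numbered samples from their diet means correlated at r = 0.0112 over 19335 genes. This value cannot tell whether same-numbered samples shared a preparation, and the labels state no pairing. A replicate block in edgeR gave 0 calls, 6 licensing genes below 0 and a median of -1.29. Low counts limit Cdc6, Mcm5 and Mcm4 in HFD replicate 1, with 2, 2 and 7 counts.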

Other observations

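Genes of mitotic division were read beside the licensing genes, since both serve dividing cells. By edgeR 0 of 9 passed the adjusted test, and 7 had fitted differences below 0, against 48.5% of all genes tested. Cdk1, the kinase that starts M phase, was at 1689 and 1.15 CPM in ND and 490 and 5.24 CPM in HFD, high in replicate 1 of both diets, as Mcm6 was. Top2a, the topoisomerase that untangles sister chromatids, was at 295 and 23.9 CPM in ND and 1091 and 12.9 CPM in HFD, again higher in replicate 1 of each diet. Ccnb2, a cyclin of Cdk1, was at 785 and 1386 CPM in ND and 2.01 and 210 CPM in HFD, and its diets did not overlap. Tpx2, a spindle assembly factor, was at 378 CPM in ND replicate 1 and 3.10 to 12.2 CPM elsewhere (log2 fold change -5.15, unadjusted p = 0.0473, edgeR). Mki67, the usual marker of dividing cells, was at 4.03 to 10.6 CPM and at background in all 4 libraries. The summed CPM of the 9 genes was 4129 and 1490 in ND and 2092 and 298 in HFD. Each library with high Mcm6 had the higher sum of its diet, with Cdk1 the largest part in ND and Top2a in HFD. Ccnb2 and Mki67 went the other way in both diets (Mki67: 6.69 and 10.6 CPM in ND, 4.03 and 4.72 CPM in HFD). A link of these genes to Mcm6 was not tested.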
